A study of Mus musculus with 64 samples.

Results

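Steroid signalling was followed through 9 genes in liver and adipose mRNA of arsenic-exposed mice, taken by gene name from the deposited expression tables. They are the receptor genes Esr1, Pgr, Nr3c1 and Nr3c2, the estrogen target Greb1, and the enzyme genes Srd5a1, Hsd11b1, Hsd17b2 and Hsd17b11. All 9 were listed among the 48440 gene IDs of each table. The mean signal reached the minimum of 10 for 7 of them in liver, where Pgr and Greb1 fell below it, and for 9 in adipose tissue.

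Every mouse was 129S6/SvEvTac and took in inorganic arsenic at 400 ppb with its drinking water for 4 weeks, and no unexposed group was analysed here. Wild-type (WT) mice expressed the mouse ortholog As3mt, which encodes the arsenic methyltransferase, and humanized mice expressed the human ortholog of AS3MT. Males and females of both genotypes were profiled with 3 libraries per group in each tissue, except for 2 adipose libraries of WT males. The study's design names the adipose tissue as the gonadal depot, which lies beside the uterus and ovary in females and the epididymis in males. The ages of the mice and how many lines carried the human gene are not given in the sources used here.

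Steroid hormones enter cells and bind nuclear receptors that switch genes on or off. Estrogen acts through the receptor encoded by Esr1 and raises transcription of Pgr and Greb1 in responsive tissues, while glucocorticoids act through the Nr3c1 product and mineralocorticoids through that of Nr3c2. How much active steroid a cell sees is also set on site by enzymes that activate, inactivate or reduce steroids, and liver and fat both carry such enzymes.

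The genes that define the labels were high and low where the labels say, with 1 exception. As3mt signal was 2624 to 6111 in WT liver and at most 5.98 in humanized liver, and 1218 to 1737 against at most 5.33 in adipose tissue. Xist was high in every library labelled female. The Y-linked gene Ddx3y, looked at after its values were seen, stood at 220.1 in adipose WT female replicate 5, against at most 2.18 in the other adipose females and 7397 to 8434 in males. The signal of all genes added up to 77307200 to 95381800 in the liver libraries and to 83100300 to 90417300 in the adipose ones. In adipose tissue, WT male replicate 5 held hepatocyte RNA: its 10 hepatocyte genes summed to 245055, against 2054 to 19640.1 in the other 10 libraries, with Alb at 129200.0. Humanized male replicate 4 had the lowest sum of 10 adipocyte genes, 1622760, against 2491290 to 3222780 elsewhere. The 2 sums otherwise followed the tissue labels. The hepatocyte sum was 6887910 or more in every liver library, where the adipocyte sum was at most 558660, below every adipose library. Of the hepatocyte genes, Hnf4a was also high in adipose WT female replicate 6, at 1196, where Alb was 4669. A p-value here measures the spread between libraries, since the labels do not say how the libraries of a group were obtained.

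In liver, 3 of the 7 genes tested were called for sex, and none was called for genotype. Esr1 was lower in males, whereas Srd5a1 and Hsd17b2 were higher in males. Over all 15180 genes tested, 9.59% passed the same test for sex, with 4.12% higher and 5.47% lower in males. Values below are the deposited normalized signal, differences are of mean log2(signal + 1), and a gene was called when limma's Benjamini-Hochberg adjusted p was under 0.05.

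Esr1, the estrogen receptor alpha gene, had liver signals of 3705, 2619 and 4458 in WT females and 1491, 2316 and 2646 in humanized females. In males the signals were 1393, 1356 and 1001 in WT and 1316, 1711 and 987 in humanized mice. The female genotypes overlapped, and 1 humanized female, at 1491, lay within the male range. The mean over both genotypes was 2872 ± 1053 in females and 1294 ± 271 in males (SD, n = 6 each). The male minus female difference was −1.09 (SE 0.20, limma adjusted p = 0.00757), a ratio of 0.469. Within a single preparation Esr1 no longer passed, at −0.91 (limma adjusted p = 0.152) after ribosomal depletion and −1.39 (limma adjusted p = 0.124) after polyA enrichment. Marker genes of other liver cells moved with sex in both directions. The summed signal of 8 endothelial genes was 8355 to 12543 in females and 4951 to 7554 in males, with 5 of the 8 called lower in males. Of 8 macrophage genes 4 were called lower as well, and of 8 T cell genes 4, with a T cell median of −1.11. Over all genes, 5.47% were called lower and 4.12% higher in males. The sum of 10 mesothelial genes was instead 21881 to 26676 in females and 29688 to 47488 in males, with 2 called higher, and all 5 tested cholangiocyte genes had higher values in males, with 1 called. The part of these cells in the Esr1 difference was not tested. Hepatocyte genes summed to 8140670 to 12579200 in females and 6887910 to 10362300 in males.

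**Figure D1:**
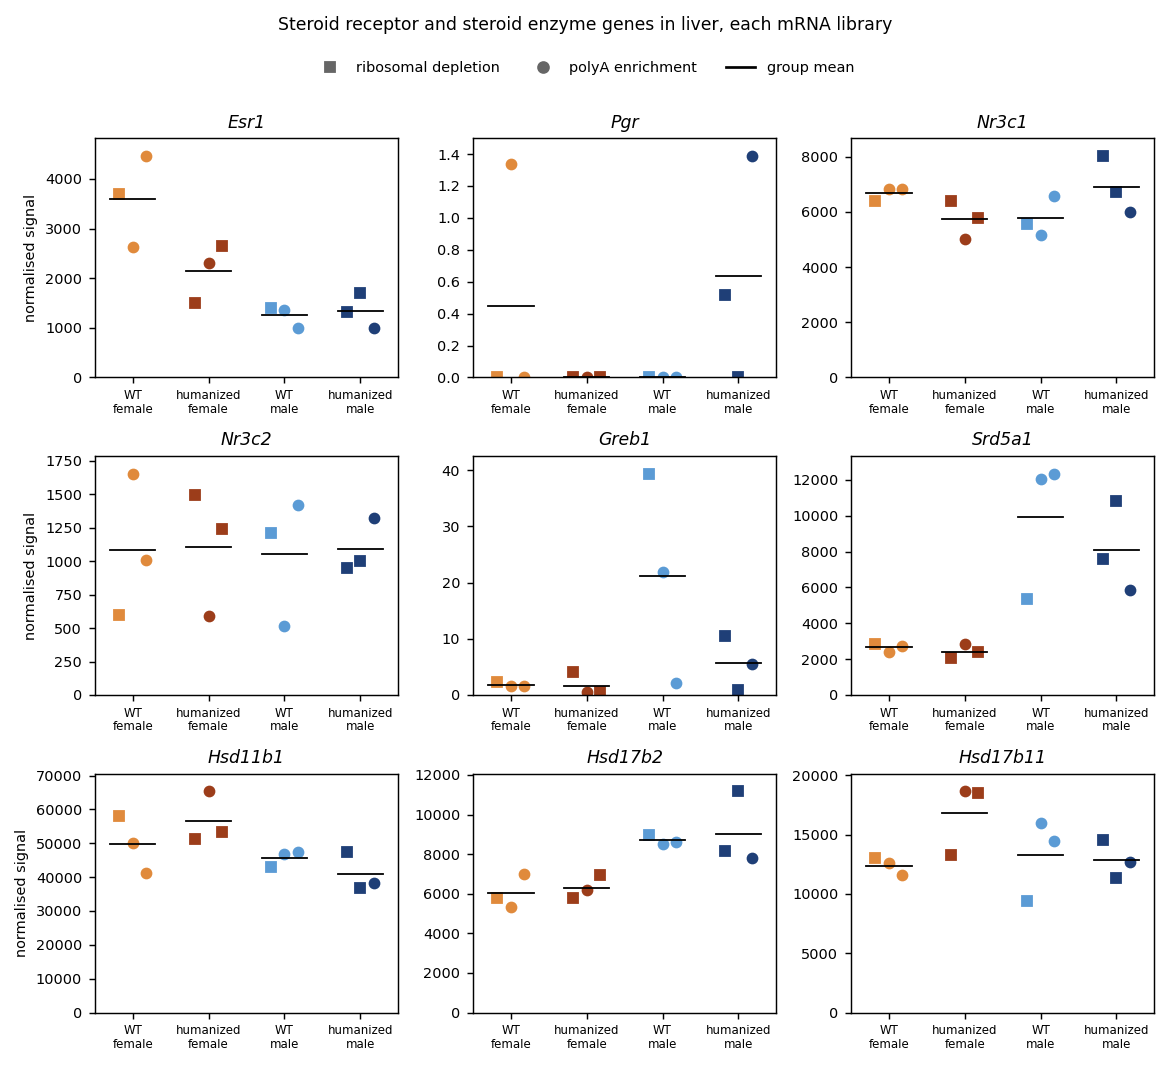
Normalized signal of each of the 9 genes in every liver library (points; squares, ribosomal depletion; circles, polyA enrichment), by genotype and sex on the horizontal axis, with group means as lines and a vertical axis that starts at 0. Srd5a1 in males starts at 5348, above the highest female value of 2852, while Pgr does not exceed 1.39 in any library.

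The glucocorticoid receptor gene Nr3c1 did not pass the test in any liver comparison. Its means were 6695 ± 246 in WT females, 5734 ± 695 in humanized females, 5761 ± 734 in WT males and 6914 ± 1023 in humanized males (SD, n = 3 each). The sex difference was 0.02, with a 95% interval of −0.20 to 0.25 (limma adjusted p = 0.923). Nr3c2, the mineralocorticoid receptor gene, varied about as much within groups as across them, from 518 to 1652 over the 12 libraries, and its sex difference was 0.01 with an interval of −0.74 to 0.76. Pgr, the progesterone receptor gene, was listed at 0 in 9 of 12 liver libraries and at 0.518, 1.34 and 1.39 in the others. Greb1, which estrogen induces in breast cells, was also barely present, at 0.485 to 4.00 in females and 0.899 to 39.4 in males, the highest being 39.4 and 21.8 in WT males. Neither Pgr nor Greb1 reached the signal minimum in liver, so neither was tested there.

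Among the enzymes, Srd5a1 had the largest sex difference of the 7 tested genes. It encodes steroid 5-alpha reductase type 1, which reduces testosterone, progesterone and glucocorticoids. Its liver signal was 2852, 2413 and 2724 in WT females and 2039, 2816 and 2394 in humanized females. In WT males it was 5348, 12027 and 12336, and in humanized males 7561, 10815 and 5856. Every male library lay above every female library, and the males spread more widely than the females. The difference was 1.75 (SE 0.22, limma adjusted p = 0.000908), a ratio of 3.37. It held in both library preparations taken alone, at 1.47 (limma adjusted p = 0.0268) after ribosomal depletion and 1.65 (limma adjusted p = 0.00989) after polyA enrichment.

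Hsd17b2 encodes the dehydrogenase that oxidizes estradiol to estrone and testosterone to androstenedione. Its liver signal was 5353 to 6984 over the 6 females, and WT males had 8986, 8491 and 8608. Humanized males had 8140.0, 11176 and 7796, so that no male overlapped the females. The difference was 0.52 (SE 0.11, limma adjusted p = 0.018), a ratio of 1.43. It was 0.61 in the ribosomal depletion libraries and 0.41 in the polyA libraries, and neither passed alone (limma adjusted p = 0.167 and 0.336). Without WT female replicate 1 the limma adjusted p was 0.0509. Of the 7 genes tested in liver, Srd5a1 and Hsd17b2 were the 2 whose sexes did not overlap, both higher in males, and 2.92% of all genes did so in that direction.

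Hsd11b1, whose enzyme regenerates active glucocorticoid from its inert form, had a mean of 53174 ± 8108 in female and 43264 ± 4837 in male livers (SD, n = 6 each). The difference of −0.29 did not pass (limma adjusted p = 0.165), and the sexes overlapped. Hsd17b11, a dehydrogenase of androstanediol found on lipid droplets, differed by −0.16 between the sexes, with a 95% interval of −0.46 to 0.15.

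No gene of the 7 was called for genotype in liver in males, in females, over both sexes or for genotype by sex, the difference between the male and female genotype effects. Over all genes, 0.0329%, 0.0198%, 0.0329% and 0.00659% were called in these 4 comparisons. Esr1 in females had the smallest unadjusted p, with means of 3594 ± 925 in WT and 2151 ± 595 in humanized females (SD, n = 3 each). That difference was −0.81 (limma unadjusted p = 0.0166, adjusted p = 0.786), and its 95% interval ran from −1.44 to −0.18. In females Hsd17b11 was at 12991, 12565 and 11591 in WT and 13300.4, 18648 and 18466 in humanized mice, a difference of 0.49 without overlap (limma adjusted p = 0.786). Nr3c1 also did not overlap in females, with a difference of −0.26, though its highest humanized value, 6409, lay just under the lowest WT value, 6410.4. Groups without overlap made up 14.1% of all genes in that comparison (7.35% higher and 6.71% lower in humanized mice), beside 2 of the 7 genes here, 1 in each direction. In males no gene of the 7 had groups without overlap, against 10% of all genes. Overlap was judged on signal not adjusted for library preparation, which was unbalanced between the genotypes.

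Other genes of the pathways around these members differed by sex in liver. The 24 tested glucocorticoid receptor targets were listed with earlier results of these data known, so their directions and median are no test. Of the 24, 22 were lower in males, with a median difference of −0.81 against 0.01 over all genes. Over all genes, 5.47% were called lower in males. The test was passed by 5, all lower in males: Sgk1 (−1.07), a kinase that acts on sodium channels; Dusp1 (−1.64), a phosphatase of MAP kinases; Igfbp1 (−2.21), a binding protein of insulin-like growth factors; Lpin1 (−1.52), a phosphatidate phosphatase; and Pdk4 (−1.74), an inhibitor of pyruvate dehydrogenase. Sgk1 was at 1056 to 2263 in females and 638 to 933 in males, and was the 1 target of these 24 without overlap, where 2.73% of all genes were lower in males without overlap. Dusp1 kept its call in 10 of 20 alternative settings and Pdk4 in 11. The genes of other liver cells that moved with sex are given beside Esr1, and their part in these targets was not tested. The median of the 24 glucocorticoid receptor targets lay between −0.90 and −0.53 when any 1 library was left out, while the number called ranged from 2 without WT female replicate 3 to 6 lower and 1 higher without humanized female replicate 1. Of the 24, 15 were lower in humanized than in WT males, with none called and a median of −0.48.

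Estrogen receptor targets beside Greb1 and Pgr showed no common direction in liver, with 8 of 16 tested higher and 8 lower in males and a median of −0.06. Tff3, a secreted trefoil peptide, was higher in males by 4.38, Lifr, a cytokine receptor, by 0.81 and Rara, a retinoic acid receptor, by 0.43. The Tff3 difference was 2.67 to 5.06 over 19 alternative settings. Whether Tff3 reached the signal minimum through males alone, and so had to differ by sex, was not examined. Ccnd1, a cell cycle regulator, was lower in males, with a difference of −2.71. Lifr kept its call in 8 of 20 alternative settings (limma adjusted p up to 0.659) and Rara in 14. Of the receptor chaperones, 1 of 10 was called for sex, beside 9.59% of all genes. It was Ppid, an HSP90 partner, higher in males by 0.39, a call kept in 5 of 20 alternative settings (limma adjusted p up to 0.308). None of 6 other steroid receptors and membrane steroid binding genes was called in any comparison, and Esrrg, an orphan receptor gene, differed by 1.87 for genotype in males (limma adjusted p = 0.704). None of 11 receptor coregulators was called, with Ncoa3 (−0.51, limma adjusted p = 0.0508) and Ppargc1a (−0.89, limma adjusted p = 0.123) nearest for sex. None of 4 mineralocorticoid and 11beta genes was called, with Cyp21a1, the steroid 21-hydroxylase (3.22, limma adjusted p = 0.0729), and H6pd (0.54, limma adjusted p = 0.0764) nearest for sex.

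Of 13 tested genes for steroid synthesis, conjugation and transport, 3 were called higher and 3 lower in males, beside 4.12% and 5.47% of all genes. Hsd3b5, a 3-ketosteroid reductase of male mouse liver, was at 8.70 to 30.7 in females and 6619 to 16336 in males, a difference of 9.17. Cyp7b1, an oxysterol and steroid hydroxylase, was higher in males by 4.47 and Hsd3b2 by 2.37. Lower in males were Hsd3b1, a 3-beta dehydrogenase (−5.02), Cyp17a1, the 17-alpha hydroxylase (−2.71), and Serpina6, which encodes corticosteroid-binding globulin (−0.92). The Serpina6 call was kept in 10 of 20 alternative settings. Over 19 alternative settings the Hsd3b1 difference ran from −6.09 to −2.76, so its size depends on the setting. Whether Hsd3b1 reached the signal minimum through females alone, and so had to differ by sex, was not examined. The Cyp17a1 figure averages female genotypes whose values did not overlap, with WT females the higher, as given below beside its adipose values. Near-identical copies in the Hsd3b family mean that reads may be split between its members, so the Hsd3b values are uncertain between copies. Hsd17b12 (0.68, of 7 other 17beta hydroxysteroid dehydrogenases) and Akr1c6 (0.78, of 8 reductases of the 5alpha, 5beta and ketosteroid list) were also higher in males.

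In adipose tissue 1 of the 9 genes, Pgr, was called for sex, where 0.42% of all 17394 genes tested were called and 0.264% called lower in males. Pgr was listed at 0 in all 5 males. In females it was 9.65, 192 and 33.6 in WT and 38.5, 269 and 855 in humanized mice. Females thus ranged over almost the whole scale of the gene, and no male had a value above 0, so no ratio is given. The difference on the log2(signal + 1) scale was −6.54 (limma adjusted p = 0.0176), and its size depends on the pseudocount. All groups share 1 estimate of the spread, to which the males at 0 add none, so the spread among females is understated. Pgr passed the signal minimum through the females alone, so it had to differ by sex once tested. Over 17 alternative settings the adjusted p of limma was 0.0111 to 0.1155, with 8 of 17 under the threshold. Pgr lost the call without WT female replicate 6, humanized female replicate 5, either WT male, or humanized male replicate 5 or 6, and kept it without WT female replicate 5, the library with Ddx3y signal.

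**Figure D2:**
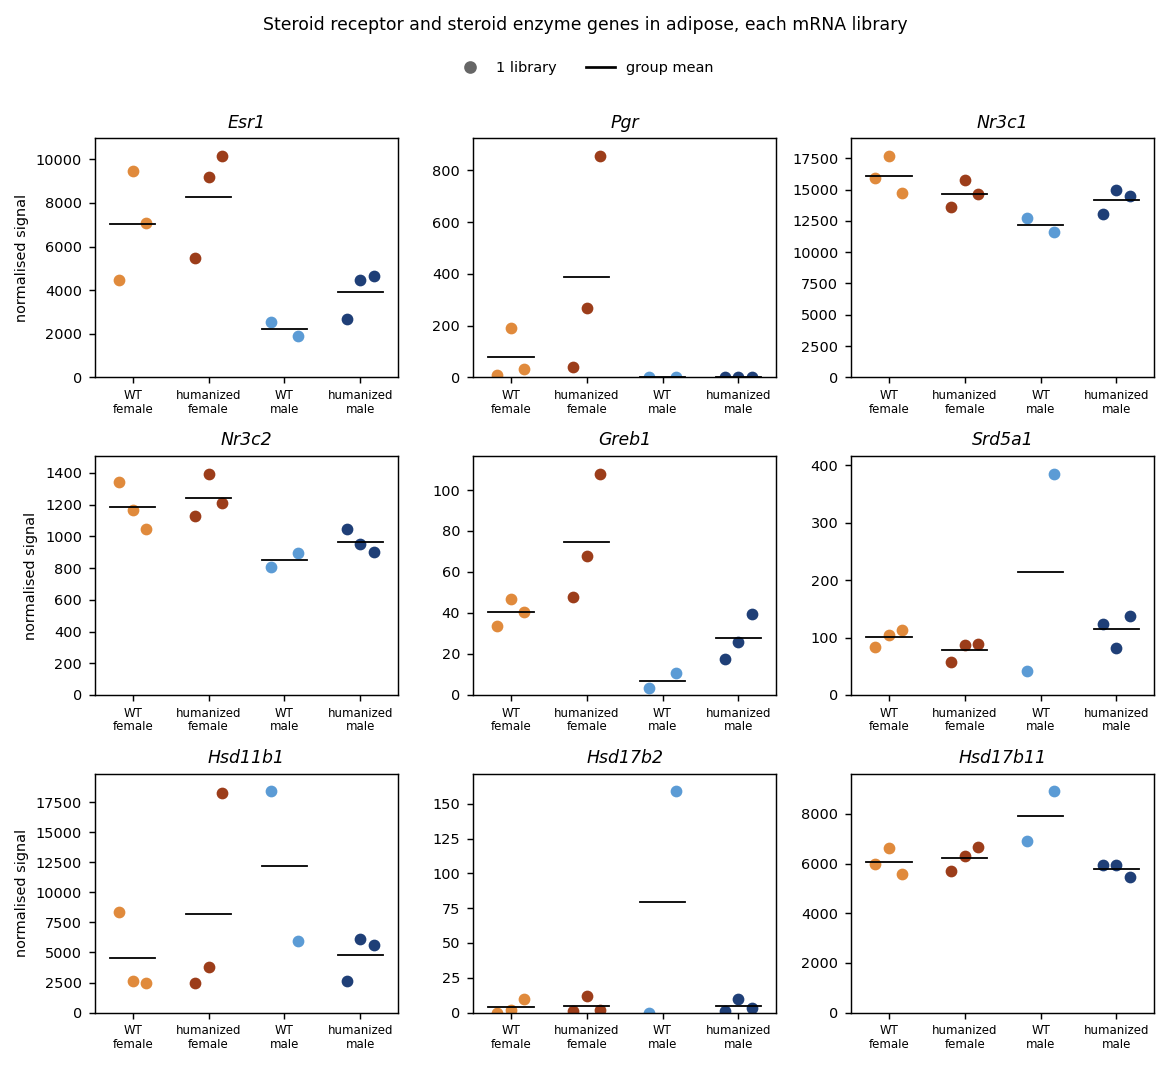
Normalized signal of each of the 9 genes in every adipose library (points), by genotype and sex on the horizontal axis, with group means as lines and a vertical axis that starts at 0. Pgr is at 0 in all 5 males, and the highest Hsd17b2 value, 159, belongs to 1 WT male library.

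Among females, the 3 libraries with most Pgr were the 3 with most smooth muscle RNA. Pgr at 855, 269 and 192 came with Cnn1, a calponin of smooth muscle, at 6011, 7559 and 4110.4, and with Actg2, a smooth muscle actin, at 4954, 3384 and 4529.6. In the other 3 females Cnn1 was 141 to 1092 and Actg2 54.0 to 351. The sum of 8 smooth muscle genes was 113222 to 186313 in those 3 libraries and 46994 to 67775 in the other 3 females. The link was not complete: WT male replicate 4 had a smooth muscle sum of 109587 with Pgr at 0, and the female with Cnn1 at 141 had Pgr at 38.5. The sum of 10 mesothelial genes was also highest among females in the 3 Pgr-rich libraries, at 48991 to 83092 against 8729 to 39063. Of 11 genes of ovary, oviduct and uterus, whose sum was 707 to 1562 in females and 484 to 683 in males, 2 to 6 were listed at 0 in each library. Fshr, which defines granulosa cells, was at 0 in every library, and Hoxa11, of the uterus, was at 256 to 618 in females and at most 3.25 in males. The part of these cells in the Pgr values was not tested, and in whole tissue fewer cells of a type and less RNA per cell cannot be told apart.

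Esr1 and Greb1 also had lower means in male adipose tissue, and neither passed the test. Esr1 was 4465, 9466 and 7100.0 in WT females and 5481, 9165 and 10140.2 in humanized females. The males had 2559 and 1914 in WT and 2666, 4448 and 4637 in humanized mice, so 1 female value fell below the highest 1 of the males. The difference was −1.33 (SE 0.25, limma adjusted p = 0.0668), a ratio of 0.397. Greb1 was 33.6, 47.0 and 40.4 in WT females, 47.8, 67.8 and 108 in humanized females, 3.58 and 10.5 in WT males, and 17.8, 25.7 and 39.3 in humanized males. Its difference was −1.94 (SE 0.38, limma adjusted p = 0.0757), with 1 female, at 33.6, below the highest male. Humanized female replicate 6 held the highest value of Pgr, Greb1 and Esr1 alike.

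The promoter sequences of these genes were read for motifs of the receptors. RefSeq windows of GRCm38.p6, from 250 bases before to 50 after a start site, were read for 7 of the 9 genes, in 9 windows. Hsd17b2 had no window, and Nr3c1 was left out of the search. The full estrogen response element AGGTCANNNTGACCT, searched on both strands, was in none of the 9 windows and in 0.0213% of the 32851 windows of all genes. Its single hexamer AGGTCA was in 1 of the 9, the upstream window of Greb1, on the reverse strand at position −88 from the start site, and in 16.3% of all windows. TTCNNNGAA, the spaced palindrome that STAT factors bind, was in 1 of the 9, a window of Esr1, at position −188, and in 8.3% of all. The glucocorticoid hexamer AGAACA and its palindrome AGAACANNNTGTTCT were in none, against 19% and 0.00913% of all windows; the hexamer AGGTCA and the full element overlap by design. Shown are the windows of Pgr, Greb1 and Esr1, an estrogen receptor gene and 2 known estrogen targets, with 1 of 2 windows each for Esr1 and Greb1, and of Srd5a1, the gene with the widest liver sex difference among the members; capitals mark the bases of a match that the motif fixes.
Pgr chr9:8899583-8899882 (+): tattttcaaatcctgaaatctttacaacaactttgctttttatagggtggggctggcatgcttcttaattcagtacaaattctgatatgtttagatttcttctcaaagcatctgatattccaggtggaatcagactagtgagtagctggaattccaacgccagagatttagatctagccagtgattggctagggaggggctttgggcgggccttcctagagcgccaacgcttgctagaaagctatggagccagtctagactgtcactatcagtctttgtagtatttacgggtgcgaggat
Greb1 chr12:16800837-16801136 (−): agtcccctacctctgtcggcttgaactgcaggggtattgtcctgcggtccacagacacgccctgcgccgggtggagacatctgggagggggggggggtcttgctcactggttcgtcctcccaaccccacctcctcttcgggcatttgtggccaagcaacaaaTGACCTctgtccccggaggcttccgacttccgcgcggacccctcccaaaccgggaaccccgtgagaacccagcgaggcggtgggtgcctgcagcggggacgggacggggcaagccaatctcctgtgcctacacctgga
Esr1 chr10:4709908-4710207 (+): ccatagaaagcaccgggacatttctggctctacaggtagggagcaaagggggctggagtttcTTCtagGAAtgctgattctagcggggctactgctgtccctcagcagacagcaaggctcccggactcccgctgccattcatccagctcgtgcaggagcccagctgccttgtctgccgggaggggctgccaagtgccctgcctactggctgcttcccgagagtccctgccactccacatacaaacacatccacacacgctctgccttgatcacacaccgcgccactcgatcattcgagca
Srd5a1 chr13:69611414-69611713 (−): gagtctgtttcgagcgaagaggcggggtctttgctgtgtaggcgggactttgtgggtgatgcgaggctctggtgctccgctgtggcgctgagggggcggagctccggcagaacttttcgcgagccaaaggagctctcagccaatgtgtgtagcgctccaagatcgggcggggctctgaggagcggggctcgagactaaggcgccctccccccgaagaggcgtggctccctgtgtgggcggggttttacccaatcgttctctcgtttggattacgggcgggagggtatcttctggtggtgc

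Such a match is a description of letters only. GC content was 43.7% in the Pgr window, 65.3% in that of Greb1, 59.3% in that of Esr1 and 63% in that of Srd5a1. Which start site the adipose transcripts used is not given by gene-level values.

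Both corticoid receptor genes had lower means in male adipose tissue, and neither passed the test. Nr3c2 was 1047 to 1394 in the 6 females and 807 to 1047 in the 5 males, and the highest male fell just short of the lowest female. The difference was −0.42 (SE 0.10, limma adjusted p = 0.140). Apart from Pgr, which reached the signal minimum through females alone, Nr3c2 was the 1 gene whose sexes did not overlap, and 1.2% of all genes were lower in males without overlap. Nr3c1 had means of 15384 ± 1405 in females (n = 6) and 13352 ± 1372 in males (n = 5), a difference of −0.23 that did not pass (limma adjusted p = 0.282).

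**Figure D3:**
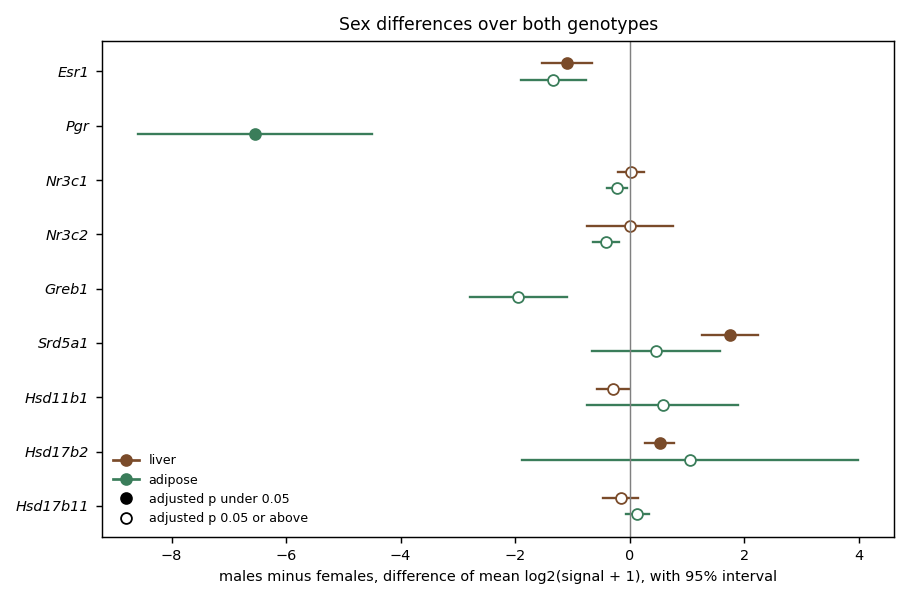
Male minus female difference of mean log2(signal + 1) over both genotypes for each gene tested (points, with 95% intervals from limma as lines), in liver and adipose tissue. Filled points are the 4 with an adjusted p under 0.05: Esr1 (−1.09), Srd5a1 (1.75) and Hsd17b2 (0.52) in liver and Pgr (−6.54) in adipose tissue. Pgr reached the signal minimum through females alone, so it had to differ by sex, and the size of its difference depends on the pseudocount.

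No enzyme was called for sex in fat, where Hsd17b2 and Srd5a1 were both highest in the 1 library that held most hepatocyte RNA. Hsd17b2 was 159 in WT male replicate 5, the library with hepatocyte RNA, and 0 to 11.7 in the other 10 adipose libraries. Its next highest values, 11.7, 10.0 and 9.68, were in humanized female replicate 5, humanized male replicate 5 and WT female replicate 6, and the first 2 of these had the next highest hepatocyte sums, 19640.1 and 13250. Srd5a1 was 385 in WT male replicate 5 and 42.1 to 138 elsewhere, with its lowest value in the other WT male. In WT male replicate 5 the 10 hepatocyte genes stood at 1.73% to 3.31% of their mean in WT male liver, with a median of 2.83%, and Hsd17b2 stood at 1.83% and Srd5a1 at 3.89%. These shares cross tables that were normalized separately. Without that library the Srd5a1 genotype difference in males turned from −0.19 to 1.39, with neither called, and Hsd17b2 no longer reached the signal minimum. In the sex comparison Srd5a1 differed by 0.45 (95% interval −0.66 to 1.57) and Hsd17b2 by 1.05 (−1.89 to 3.99).

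**Figure D4:**
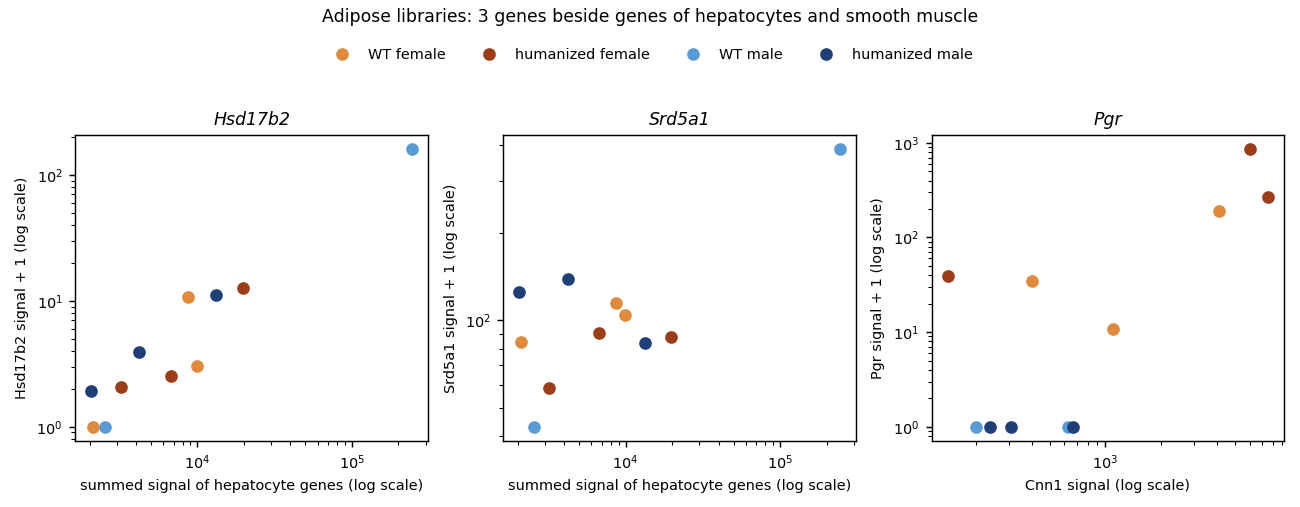
Each point is 1 adipose library: Hsd17b2 and Srd5a1 signal plus 1 against the summed signal of 10 hepatocyte genes (left and middle), and Pgr signal plus 1 against Cnn1, a smooth muscle gene (right), all axes on log scales. The library at the far right of the first 2 panels is WT male replicate 5 (sum 245055), and the 3 libraries with Pgr at 192 or more are those with Cnn1 at 4110.4 or more.

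Hsd11b1 was uneven across adipose libraries and passed no test for sex or genotype. It was 18422 in WT male replicate 4 and 18305 in humanized female replicate 6, and 2455 to 8372 in the other 9. The group means were 4505 ± 3350 in WT females, 8192 ± 8785 in humanized females, 12174 ± 8836 in WT males (n = 2) and 4787 ± 1869 in humanized males (SD, n = 3 unless given). Hsd17b11 was 6892 and 8909.6 in the 2 WT males and 5439 to 6676 in all other libraries.

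Genotype called none of the 9 genes in adipose tissue in males, in females, over both sexes or by sex, where 0.0172%, 0.0172%, 0.023% and 0% of all genes were called. In males, 5 of the 9 had groups without overlap, 4 higher and 1 lower in humanized mice, against 23.3% of all genes (11.2% higher and 12.1% lower), a share that 2 WT males make high. The higher 4 were Greb1 (1.90, limma adjusted p = 0.396), Esr1 (0.78), Nr3c1 (0.22) and Nr3c2 (0.18), and the lower 1 was Hsd17b11 (−0.44, limma adjusted p = 0.403). Leaving out WT male replicate 5 gave 2.57 for Greb1 and −0.26 for Hsd17b11, and leaving out WT male replicate 4 gave 1.24 and −0.63. Fibroblast and preadipocyte genes separated the same males: all 10 had higher values in humanized males, 7 without overlap and none called, with a median of 0.86 and sums of 284164 and 370590 in WT and 443287 to 716855 in humanized males. The sum of 8 macrophage genes was highest in humanized male replicate 4, at 241573, against 38328 to 121443 in the other adipose libraries. The part of these cells in the values of the 9 genes was not tested. In females, Greb1 was the 1 gene of 9 without overlap, at 33.6 to 47.0 in WT and 47.8 to 108 in humanized mice (0.80, limma adjusted p = 0.936), against 11% of all genes in either direction and 5.54% higher. Pgr in females differed by 2.33 between genotypes, with a 95% interval of −0.40 to 5.06, and the groups overlapped. That interval rests on a spread shared with the males, whose Pgr was 0 in every library, so it understates the spread among females.

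Most glucocorticoid receptor targets had lower values in adipose tissue of humanized than of WT males, and none passed the test. The difference was below 0 for 23 of 24 tested, with a median difference of −0.80 against 0.01 over all genes. The groups did not overlap for 8 of the 24, all lower in humanized males, where 12.1% of all genes did so. Since the list was chosen with earlier results of these data known, this comparison is no test. The fibroblast and preadipocyte genes had higher values in the same humanized males for 10 of 10. Humanized male replicate 4 also held the highest macrophage sum and the lowest adipocyte sum of the adipose libraries. The part of these cells in the glucocorticoid receptor targets was not tested. The smallest p-values belonged to Arrdc2 (a ratio of 0.353), an arrestin-like gene, and Pdk4 (a log2 difference of −2.51), both at a limma adjusted p of 0.174. Pdk4 was 37124 and 49465 in WT males, 5897 to 9482 in humanized males and 6221 to 25131 in females. Arrdc2 was 4098 and 4127 in WT males and 1098 to 2298 in the other 9 libraries.

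For 5 of the 24, 20.8%, both WT males lay above all 9 other libraries, as they did for 3.67% of all genes. The list was chosen with earlier results of these data known, and the shares rest on 2 WT males, so they describe these libraries and are no test. These were Arrdc2, Pdk4, Fkbp5, Lpin1 and Mt2, the last 3 named after their values were seen. Fkbp5, a receptor co-chaperone that glucocorticoids induce, was 28508 and 25269.7 in WT males, 3187 to 10758 in humanized males and 5992 to 19953 in females. Both WT males also had the highest H6pd, 85387 and 74327 against 30868 to 61361 in the others; H6pd supplies the cofactor of the Hsd11b1 enzyme. Nr3c1 itself was lowest in the same 2 libraries, at 12689 and 11591, against 13026 to 17659 elsewhere. Tat, G6pc, Igfbp1 and Tdo2 of the list are genes of hepatocytes, and each was high in WT male replicate 5 but not in the other WT male. G6pc also reached 703 in a library outside the WT males. Without that library 18 of 24 glucocorticoid receptor targets were lower in humanized males and the median was −0.68. Without it and humanized male replicate 4, an exclusion chosen after seeing the data, these figures were 16 of 24 and −0.72. In females 10 of the 24 were lower in humanized mice, and the median was 0.07. The genotype by sex median was −1.04, with none of the 24 called.

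**Figure D5:**
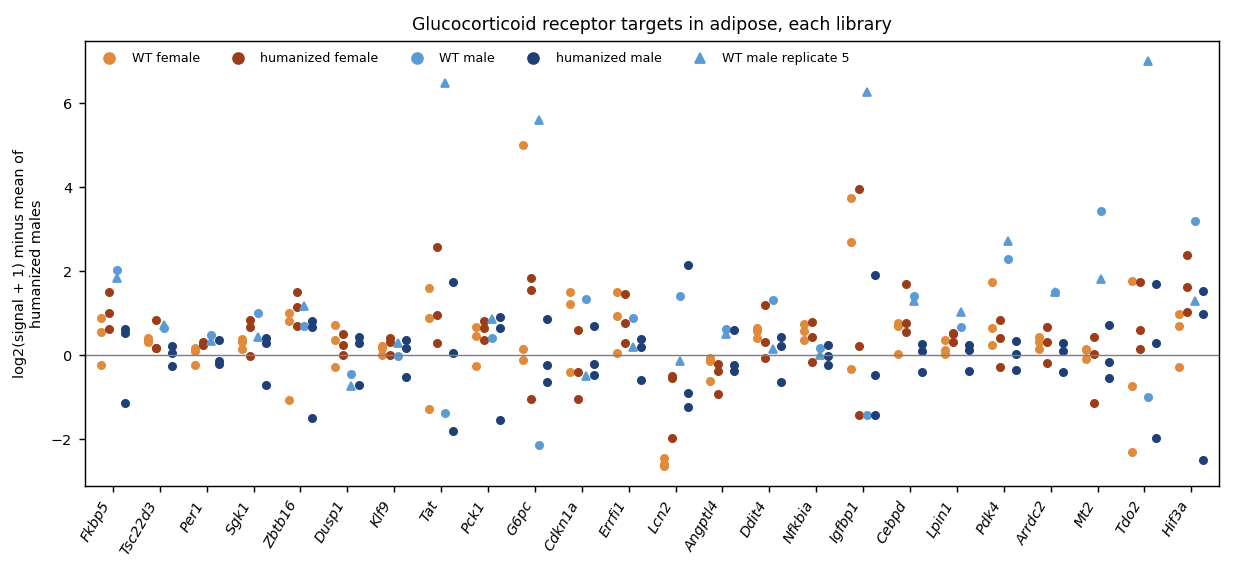
Signal of 24 glucocorticoid receptor targets in each adipose library, as log2(signal + 1) minus the mean of humanized males for that gene (vertical axis), coloured by group, with WT male replicate 5 as a triangle. For Fkbp5, Lpin1, Pdk4, Arrdc2 and Mt2 both WT male points lie above all other libraries, and for the hepatocyte gene Tat only the triangle is high.

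Elsewhere in the adipose pathways, 2 genes were called, both for steroid synthesis, conjugation and transport. Cyp17a1 was 1.05, 4.69 and 11.6 in WT females, 5.55 and 37.5 in WT males, 238, 373 and 402 in humanized females and 147, 407 and 271 in humanized males. It was higher in humanized mice over both sexes by 4.99 (limma adjusted p = 0.048), with no overlap, and was called in 6 of 17 alternative settings (limma adjusted p = 0.00842 to 0.249). In female liver Cyp17a1 went the other way, at 18975 to 27439 in WT and 2266 to 3479.8 in humanized mice, with no call there. Cyp17a1 lies 2 protein-coding genes from As3mt on chromosome 19 in the gene order of GRCm38.p6, with Borcs7 between them. Sult1e1, the estrogen sulfotransferase, was 0 to 59.4 in females and 119 to 1986 in males, a difference of 6.40 (limma adjusted p = 0.0372, and 0.00947 to 0.100 in the alternatives) that was called in 6 of 17 alternative settings.

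Of the 16 tested estrogen receptor targets beside Greb1 and Pgr, 8 were higher and 8 lower in male adipose tissue, with a median of −0.05 and none called. The smallest p-values there belonged to Cited1, a transcriptional coregulator (−2.83, limma adjusted p = 0.147), and Ccn5, a secreted matrix protein (1.26, limma adjusted p = 0.355). Among the lists without a call, the genes with the smallest p-values for sex were Akr1c18 (−1.66) and Akr1c14 (−0.62), reductases of ketosteroids, Cyp11b1 (−3.03) and H6pd (0.61) of the 11beta list, and Hsd17b14 (0.68). For genotype over both sexes they were Hsd17b4 (−0.40), of peroxisomes, and Ncor1 (−0.36), a corepressor, and for genotype in females Hsp90aa1 (−0.43). For genotype by sex they were Esrra (0.97), Gper1 (1.06) and Ppargc1b (1.80), with Fkbp5 (−1.93) for genotype in males. None of these passed, the limma adjusted p being 0.219 to 0.933. No other receptor, coregulator, chaperone, 11beta, 17beta or 5alpha gene of the lists was called in adipose tissue in any comparison.

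The genes whose signal ran most like that of a called member were found by Pearson's r of log2(signal + 1) over the libraries of the tissue, with sex, depth and preparation shared by all points. For Esr1 in liver they were Spacdr (0.90), Gm12689 (0.90) and Adgrg2 (0.90), over 12 libraries. For Srd5a1 they were Gm4956 (0.98), Keg1 (0.97) and C1ra (0.97), and for Hsd17b2 mt-Co2 (0.94), Maip1 (0.94) and Gm38416 (0.93). For Pgr in adipose tissue they were Hoxd11 (0.97), Clvs2 (0.96) and Btnl5-ps (0.96), over 11 libraries.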

How the data were processed

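mRNA was measured in 12 liver and 11 adipose libraries; the 41 small RNA libraries were not used here. The authors deposited 1 normalized signal per gene and library, in tables named as DESeq normalized counts. The submitters' processing notes list DESeq2, STAR, Salmon, limma and mm9, with no roles or versions. No whole-read step could be recovered, so depth in reads is unknown and small signals carry counting error that cannot be stated. Libraries were grouped by source name. Liver libraries were made after ribosomal depletion (6) or polyA enrichment (6), adipose ones by a cited protocol, per the labels' protocols. Each WT liver group held 2 polyA and 1 ribosomal depletion libraries, and each humanized liver group 1 polyA and 2 ribosomal depletion libraries.

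For each tissue, log2(signal + 1) went into limma 3.58.1 (R 4.3.3; eBayes, trend on), using genes with a mean of at least 10, in 1 model of 4 groups, with preparation as a covariate in liver. The 5 comparisons per tissue were adjusted over all genes tested; calls needed an adjusted p under 0.05. Tissues were normalized separately and not compared by a test. The fit was tested on simulated data. For sex it recovered 59% of shifts of 1 and 89% of shifts of 2 in liver, and 58% and 79% in adipose tissue. For genotype in males it recovered 37% and 71% in liver, and 36% and 67% in adipose tissue. Many genes were shifted at once, which eases calling under the adjustment, and no preparation effect was simulated. In the data, genotype in males called 5 genes in liver and 3 in adipose tissue, so these shares may overstate recovery there. Alternatives covered pseudocount, filter, scaling by trimmed mean of M values (TMM), preparation, replicate block and single libraries.

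The 9 genes and all lists were chosen with earlier results of these data known. Named beside them were called list genes (if none, the 2 with the smallest p; over 6, the 3 largest in each direction) and the 3 genes most like each called member. Hsd17b8 and Sts of the lists matched no row by name. Promoters came from RefSeq (GRCm38.p6). The result of 1 gene that this rule names is not reported here.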

Additional observations from a re-analysis of the deposited data

Results flagged for a closer look

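The 9 genes were examined for single libraries standing apart within each sex of a tissue, in 35 sets of 5 or 6 libraries, and a library was noted where its gap to the nearest other was large for the range of the set (Dixon's criterion at 95%). Of the 35 sets, 8 were noted. The criterion assumes normal values, whereas the signal was not log-transformed, each set mixed both genotypes, and sets shared libraries. No rate expected by chance is therefore given. In adipose tissue Hsd17b2 at 158.914 and Srd5a1 at 385.319 stood apart among the 5 males, both in WT male replicate 5, the library with the highest hepatocyte genes. Hsd11b1 stood apart in 2 sets, at 18422.1 in WT male replicate 4 and at 18305.0 in humanized female replicate 6, where Pgr at 855.083 stood apart as well. In liver Hsd17b2 was highest at 11176.4 in humanized male replicate 2. Pgr at 1.33752 in WT female replicate 2 and at 1.38682 in humanized male replicate 3 stood apart in liver only because nearly every other library was at 0. No gene of the 9 had a called genotype by sex difference or opposite genotype differences without overlap in the 2 sexes.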

How the results depend on the processing

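Each of the 10 counts of called members (5 comparisons in 2 tissues) was recomputed under each other setting. The 8 genotype counts were 0 throughout. For sex in liver, 3 members were called (Esr1, Srd5a1, Hsd17b2) and 2 to 3 with any 1 library left out, the lower count without WT female replicate 1 (Hsd17b2 at a limma adjusted p of 0.0509). The count was 1 (Srd5a1) with ribosomal depletion libraries only and 1 (Srd5a1) with polyA enrichment libraries only, which leave 6 libraries each. For sex in adipose tissue, the count of 1 was Pgr, which reached the signal minimum through females alone. The count became 0 with pseudocount 10 and 0 with a mean of at least 100. It ranged from 0 to 2 with 1 library left out: 0 without WT female replicate 6, humanized female replicate 5, either WT male, or humanized male replicate 5 or 6, and 2 (Esr1 and Pgr) without WT female replicate 4. It was 0 without both WT male replicate 5 and humanized male replicate 4, an alternative chosen after seeing the data. Where 1 WT male remained, that library was assumed to vary like the other groups. The cause of these changes was not tested beyond the smaller number of libraries.

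The replicate block gave 3 called members for sex in liver, 1 for sex in adipose tissue and 0 for every genotype comparison, as without the block. The numbers were not taken as pairs, since the labels do not say that they pair animals. Deviations of same-numbered libraries of different groups correlated at −0.455 to 0.241 in liver (median −0.079) and −0.105 to 0.399 in adipose tissue (median 0.148). Those with different numbers correlated at −0.280 to 0.442 (median 0.018) and −0.358 to 0.297 (median −0.089). With their own number, 2 of 12 liver and 7 of 11 adipose libraries correlated best. What same-numbered adipose libraries share was not tested.

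Over single genes, 356 of the values recomputed for called differences stayed called and 113 lost the call, with 0 reversed. Of those for uncalled differences, 105 changed sign and 1 gained a call. TMM scaling moved no median of all genes by more than 0.0238 on the log2 scale.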
